A study of Mus musculus with 32 samples.

Results

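The expression of 10 genes that make, modify or release fatty acids was followed across mouse medulloblastoma models driven by MYC or MYCN. The genes were Lpl, Abhd2, Fasn, Acaca, Acly, Scd1, Scd2, Elovl6, Fads1 and Fads2, chosen by symbol, and all 10 were found among the 37310 genes of the tumor count table. RNA came from fresh-frozen biopsies of 6 GMYC and 8 GTML tumors. In GMYC mice (Glt1-tTA/TRE-MYC) the tetracycline transactivator, expressed from the promoter of the glutamate transporter Glt1, switches on a MYC transgene, and in GTML mice the same promoter directs MYCN. Both models are Tet-OFF and both were kept on the FVB/N background. The driver is thus expressed in cells in which the Glt1 promoter is active. Per the study's methods most GTML libraries had been generated earlier than the GMYC libraries. The labels do not give the sequencing round, so its effect and that of the model cannot be told apart here. The labels give neither age nor sex, and they do not state that each biopsy is from a separate mouse, so p-values measure the spread between biopsies.

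Fatty acid synthesis starts when ATP citrate lyase (Acly) turns citrate into acetyl-CoA. Acetyl-CoA carboxylase (Acaca) then makes malonyl-CoA, and fatty acid synthase (Fasn) builds palmitate from it. Elovl6 lengthens palmitate, the stearoyl-CoA desaturases Scd1 and Scd2 place the first double bond, and Fads1 and Fads2 desaturate polyunsaturated chains. Lipoprotein lipase (Lpl) instead frees fatty acids from circulating triglycerides at the vessel wall, and Abhd2 is a serine hydrolase of the alpha/beta hydrolase family that can cleave acylglycerols. In the brain these pathways supply membranes and myelin, and Scd2 is the abundant desaturase of neural tissue.

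Total counts per tumor were 6218378 to 7279811 in GMYC and 4602294 to 6317404 in GTML, and the members had between 81 and 4665 counts each. All levels are CPM values, a gene's counts scaled to the library sizes set by the trimmed mean of M-values (TMM). Myc was 128 ± 47.5 CPM (SD, n = 6) in GMYC and 5.20 ± 1.89 CPM (SD, n = 8) in GTML tumors, and Mycn was 23.0 ± 10.8 and 159 ± 28.02 CPM (SD) in the same order. No model overlapped the other for either gene. The study describes the MYC transgene as human, while reads were aligned to the mouse genome. How much of the transgene these mouse genes count was not tested. GTML tumor 2 stood apart in Gli1, a Hedgehog target, at 14.2 CPM against at most 3.58 CPM in the other GTML tumors, and 6 tumors (GMYC 1 to 4, GTML 1 and 2) carried over 0.3% of their counts on small nucleolar RNAs (snoRNAs). This split was seen in the counts and is no label of the study. It follows the order of the sample list, in which these 6 tumors come before all others. Values of Lpl, Abhd2, Scd1 and Elovl6 are given on both sides of the split and without GTML tumor 2, and those of the genes around the members stand together after the lists.

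The regulatory sequence of Abhd2, the member that was higher in GTML, and that of Fasn, which did not pass the test, are shown for comparison. The RefSeq promoter table (GRCm38.p6; 250 bases before to 50 after the start site) held 6 of the 10 members, namely Abhd2, Fasn, Acaca, Acly, Elovl6 and Fads2. Capitals mark matches on either strand to CCAAT, the letters read by NF-Y, and to GGGCGG, the GC box.
Abhd2 promoter, chr7:79273016-79273315, plus strand: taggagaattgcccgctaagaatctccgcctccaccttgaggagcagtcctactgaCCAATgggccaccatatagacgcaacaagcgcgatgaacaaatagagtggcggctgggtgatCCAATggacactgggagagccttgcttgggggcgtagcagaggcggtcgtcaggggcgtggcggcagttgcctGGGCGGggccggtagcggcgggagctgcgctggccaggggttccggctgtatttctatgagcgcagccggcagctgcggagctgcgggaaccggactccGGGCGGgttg
Fasn promoter, chr11:120824498-120824797, minus strand: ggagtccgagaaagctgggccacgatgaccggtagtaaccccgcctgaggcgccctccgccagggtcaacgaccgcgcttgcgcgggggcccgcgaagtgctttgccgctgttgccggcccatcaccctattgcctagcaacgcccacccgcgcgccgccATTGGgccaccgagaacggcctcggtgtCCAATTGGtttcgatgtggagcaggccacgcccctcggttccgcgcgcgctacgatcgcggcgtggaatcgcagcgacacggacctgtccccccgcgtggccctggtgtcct
The Abhd2 window held 2 CCAAT matches, starting 194 and 132 bases before the start site, and 2 GC boxes. The Fasn window held 3 CCAAT matches, starting 90, 62 and 59 bases before the start site, with the last pair overlapping on opposite strands, and no GC box. Of 32851 promoters of this length, 37.4% held CCAAT and 35.7% held GGGCGG. The canonical E-box of MYC and MYCN, CACGTG, was in 7.15% of promoters and in none of the 6 members' windows, and the sterol response element TCACNCCAC was in 1.24% and likewise in none of the 6. The Acaca window was 39.7% G or C, while the other members' windows ran from 55.7% (Elovl6) to 69.3% (Fasn). Whether each window is the promoter in use in these tumors was not tested. These are descriptions of the letters in the windows only.

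Of the 10 members, 3 passed an adjusted p of 0.05 in the comparison of GTML with GMYC tumors. Lpl and Scd1 were higher in GMYC and Abhd2 was higher in GTML, and the same 3 passed the stricter thresholds of an adjusted p of 0.01 and a log2 fold change beyond 1. Over all 21024 genes tested, 21.2% passed the first threshold (9.71% higher in GMYC, 11.5% higher in GTML) and 3.22% the second (1.1% higher in GMYC, 2.11% higher in GTML). A count of 3 in 10 therefore lies near the background at the first threshold. The log2 fold change (GTML over GMYC) was below 0 in 7 members, with a median of -0.30 over all 10, against a median of 0.04 over all genes tested, of which 47.5% were below 0.

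**Figure D1:**
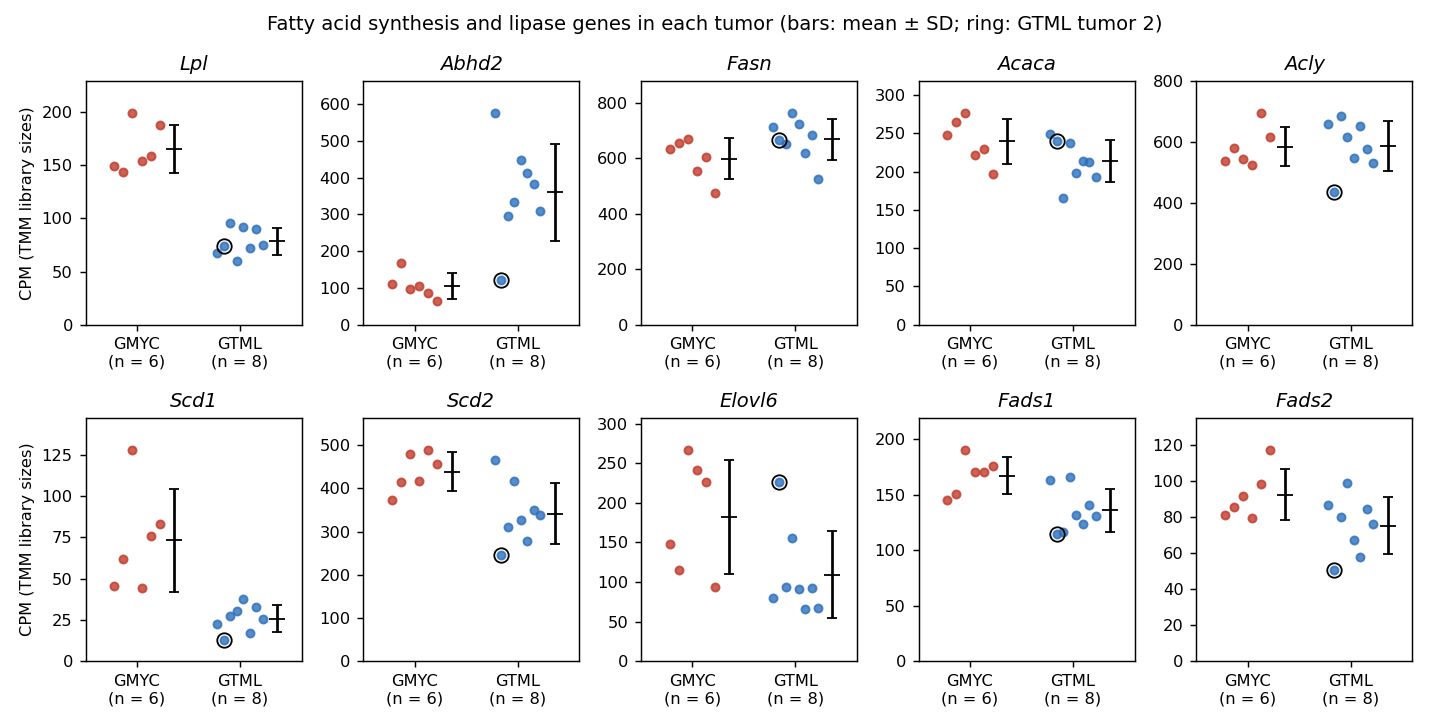
CPM (vertical axis, linear from 0) of each member in the 6 GMYC tumors (red) and 8 GTML tumors (blue), 1 point per tumor, with the mean and SD as a black bar beside each model and a ring around GTML tumor 2. Lpl and Scd1 separate the models without overlap, Abhd2 separates them except for the ringed tumor, and the other 7 members overlap.

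Lpl was the member with the smallest p. Its lowest, median and highest levels were 144, 157 and 199 CPM in GMYC tumors and 59.8, 74.8 and 95.8 CPM in GTML tumors. Every GMYC tumor was above every GTML tumor, as it was for Scd1. Over all genes tested 4.62% separated the models without overlap, 2.48% in this direction and 2.14% in the other. The mean was 166 ± 22.6 CPM (SD, n = 6) in GMYC and 78.3 ± 12.8 CPM (SD, n = 8) in GTML, 2.11-fold higher in GMYC, with a log2 fold change of -1.08 (SE, the standard error, 0.121, adjusted p = 0.000319). By p, Lpl ranked 8 among all genes tested. It kept its call in each of the 14 fits that left out 1 tumor, where the log2 fold change ran from -1.13 to -1.02. Without GTML tumor 2 it was -1.07. Among the tumors above the snoRNA split (4 GMYC, 2 GTML) it was -1.18 (adjusted p = 0.159), and among those below it (2 GMYC, 6 GTML) -1.11 (adjusted p = 0.0114).

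Because a biopsy holds more than tumor cells, markers of other cells it can contain were set beside Lpl. The summed level of 12 microglia and macrophage markers ran from 242 to 389 CPM in GMYC tumors, with a median of 332 CPM. In GTML tumors it ran from 126 to 525.9 CPM, with a median of 224 CPM. Of the 12, 1 passed, Cd68, higher in GMYC (log2 fold change -0.65). Tyrobp (-0.84, adjusted p = 0.0519) and Trem2 (-0.78, adjusted p = 0.0544), both microglial genes, had larger differences with the same sign and did not pass. GTML tumor 8 had the highest sum of these markers of all tumors, and 75.3 CPM of Lpl. The next highest GTML sum was 340 CPM, in GTML tumor 2. The 10 endothelial and pericyte markers summed to 132 to 476 CPM in GMYC (median 300) and 261 to 719 CPM in GTML (median 389). Of these 2 were higher in GTML (Kdr, Esam) and none higher in GMYC. The 7 adipocyte markers summed to at most 12.02 CPM in any tumor. No list had all tumors of one model above all of the other, and no marker was at 0 in every tumor. Of the oligodendrocyte markers Mog (log2 fold change 1.56) and Myrf (1.14) were higher in GTML and Olig2 (-2.35) in GMYC. The cerebellar neuron marker Cbln3 (-3.39) and the tumor identity markers Tubb3 (-0.44) and Neurod1 (-0.23) were higher in GMYC, and no astrocyte marker passed. Fewer cells of a type and less RNA per cell cannot be told apart in such biopsies, and the part of these cells in the Lpl result was not tested. Of the 5 erythroid genes 4, the globins Hbb-bt, Hbb-bs, Hba-a1 and Hba-a2, were also higher in GMYC, with list sums of 53.4 to 176 CPM against 41.6 to 134 CPM in GTML.

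The proteins that mature, anchor and regulate LPL were examined next. Of 21 LPL partners 19 were tested, 1 was higher in GMYC and 1 in GTML (10.5% called, against 21.2% of all genes), and the median log2 fold change was 0.12. Apoc2, the apolipoprotein that activates LPL, was 2.05 CPM in GMYC and 0.855 CPM in GTML on average, a log2 fold change of -1.23 (SE 0.381, adjusted p = 0.0328). Its highest count in a GMYC tumor was 18, and the call held in 7 of the 14 fits without 1 tumor, with an adjusted p of up to 0.0741 (without GMYC tumor 5). Furin, a protease that cleaves LPL and its inhibitors, was higher in GTML at 63.6 against 31.6 CPM, a log2 fold change of 1.01 (SE 0.266, adjusted p = 0.017). Gpihbp1, which tethers LPL to capillaries, stayed between 0 and 6.51 CPM. The LPL maturation factor Lmf1 was 41.3 ± 9.09 CPM (SD, n = 6) in GMYC and 45.9 ± 13.1 CPM (SD, n = 8) in GTML.

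Abhd2 showed the opposite difference. Its lowest, median and highest levels were 63.6, 102 and 167 CPM in GMYC tumors and 120, 359 and 576 CPM in GTML tumors. The lowest GTML value belongs to GTML tumor 2 and lies inside the GMYC range, while the other 7 GTML tumors, from 296 CPM upward, were above all GMYC tumors. The mean was 105 ± 34.6 CPM (SD, n = 6) in GMYC and 360 ± 132 CPM (SD, n = 8) in GTML, 3.43-fold higher in GTML, with a log2 fold change of 1.78 (SE 0.28, adjusted p = 0.00253). Without GTML tumor 2 it was 1.91 (SE 0.208, adjusted p = 0.000237). It was 1.55 (adjusted p = 0.328) above the snoRNA split, where GTML tumor 2 is 1 of 2 GTML tumors, and 2.27 (adjusted p = 0.00203) below it. The call held in all 14 fits without 1 tumor. FPKM here is CPM per kilobase of all annotated exons of a gene, merged. Per exon base, Abhd2 was the lowest of the members in GMYC tumors, at 9.93 ± 3.27 FPKM (SD). It was the fourth in GTML tumors, at 34.1 ± 12.5 FPKM (SD).

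Of 18 other ABHD hydrolases, all tested, 2 passed and both were higher in GMYC, with a median log2 fold change of -0.02. They were the depalmitoylases Abhd17a (99.3 against 61.2 CPM, log2 fold change -0.70, adjusted p = 0.00622) and Abhd17b (56.9 against 37.7 CPM, log2 fold change -0.59, adjusted p = 0.0181). Among 18 other lipases tested of 20, Lipa, the lysosomal acid lipase, was 1.69-fold higher in GMYC without overlap (log2 fold change -0.75, adjusted p = 0.0123). Dagla, which makes the endocannabinoid 2-arachidonoylglycerol that ABHD enzymes can degrade, was higher in GTML at 26.5 against 12.4 CPM (log2 fold change 1.09, adjusted p = 0.0275). Its call held in 8 of the 14 fits without 1 tumor, with an adjusted p of up to 0.0621 (without GMYC tumor 5). The log2 fold change of Dagla was 0.32 (adjusted p = 0.766) above the snoRNA split and 1.88 (adjusted p = 0.03) below it, and the call was lost with a term for the split (adjusted p = 0.0755). The share called, 11.1% of both lists, was below the 21.2% of all genes.

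The first steps of synthesis did not pass the test. Acly had lowest, median and highest levels of 526.3, 563 and 696 CPM in GMYC and 436, 598 and 686 CPM in GTML, and its log2 fold change was 0.01 (SE 0.103, adjusted p = 0.949). Acaca ran from 197 to 277 CPM in GMYC and from 166 to 250 CPM in GTML, with a log2 fold change of -0.16 (SE 0.105, adjusted p = 0.261). Fasn ran from 475 to 670 CPM in GMYC and from 525.6 to 764 CPM in GTML, with a log2 fold change of 0.16 (SE 0.097, adjusted p = 0.239). For all 3 the models overlapped, and none was called in any alternative. Within each model their spread was below the median of all genes tested. The SD of log2 CPM over GTML tumors was 0.17 for Fasn, 0.19 for Acaca and 0.21 for Acly, against a median of 0.50. Over GMYC tumors it was 0.19, 0.18 and 0.15 in the same order, against 0.38. The genes tested reach down to a CPM above 1 in 3 tumors, and genes of like level were not compared.

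Although neither passed alone, Fasn and Acaca shifted against each other. The log2 ratio of Fasn to Acaca per exon base was 1.96 ± 0.05 (SD, n = 6) in GMYC tumors, from 1.91 to 2.03. In GTML tumors it was 2.29 ± 0.19 (SD, n = 8), from 2.09 to 2.61, with no GTML tumor as low as any GMYC tumor. The difference was 0.33 (exact two-sided permutation test, p = 0.000666, the smallest that 6 against 8 tumors allow; p = 0.002 adjusted over 3 ratios). The 3 ratios were chosen with the members' values known. The difference was 0.18 above the snoRNA split and 0.37 below it, without overlap on either side, and with 4 against 2 and 2 against 6 tumors the exact permutation p could not go below 0.133 and 0.0714. Of the 50-base windows of Acaca transcripts, 30.4% occur in transcripts of other annotated genes, led by the pseudogene Gm5182, while none of those of Fasn do. How reads in such windows were assigned was not tested.

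**Figure D2:**
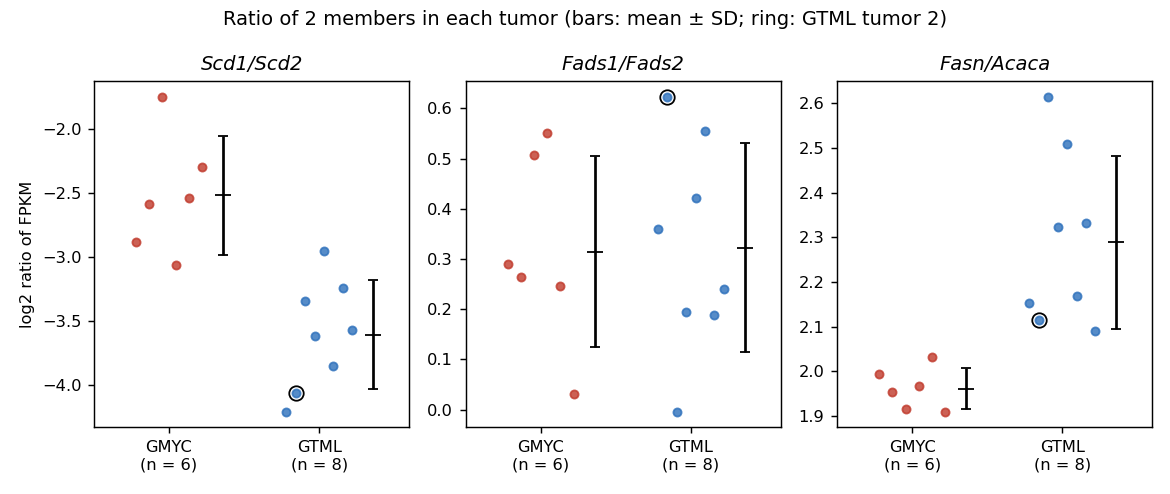
Log2 ratio of FPKM for 3 pairs of members (vertical axis) in each GMYC (red) and GTML (blue) tumor, with mean and SD as black bars and a ring around GTML tumor 2. The Fasn/Acaca ratio is higher in all GTML tumors, the Scd1/Scd2 ratio is lower in GTML with a small overlap, and the Fads1/Fads2 ratio overlaps throughout.

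The desaturases of saturated chains differed in size of change. Scd1 had lowest, median and highest levels of 44.6, 68.8 and 128 CPM in GMYC and 13.2, 26.5 and 37.9 CPM in GTML. Every GMYC tumor was above every GTML tumor, with GMYC tumor 3 the highest and GTML tumor 2 the lowest. The mean was 73.2 ± 31.1 CPM (SD, n = 6) in GMYC and 25.9 ± 8.18 CPM (SD, n = 8) in GTML, 2.82-fold higher in GMYC, with a log2 fold change of -1.50 (SE 0.262, adjusted p = 0.00354). Without GMYC tumor 3 it was -1.26 (adjusted p = 0.0113) and without GTML tumor 2 it was -1.40 (adjusted p = 0.00215). It was -1.96 (adjusted p = 0.274) above the snoRNA split and -1.48 (adjusted p = 0.0137) below it.

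Scd2 was far more abundant, at 80.3 ± 8.18 FPKM (SD) in GMYC and 62.6 ± 13.1 FPKM (SD) in GTML, where Scd1 was 14.96 ± 6.36 and 5.30 ± 1.67 FPKM (SD). Its levels ran from 374 to 490 CPM in GMYC and from 246 to 465.9 CPM in GTML, and the log2 fold change of -0.36 (SE 0.128, adjusted p = 0.0557) just missed the threshold. Scd2 passed in 2 of the 14 fits without 1 tumor, without GTML tumor 1 (adjusted p = 0.0172) and without GTML tumor 4 (adjusted p = 0.0381). Of 12 other alternatives it passed in 1, limma-voom (adjusted p = 0.0365). With the covariate from Y-linked genes it was -0.22 (adjusted p = 0.357), and above the snoRNA split -0.23 (adjusted p = 0.730). The difference between the desaturases was itself tested. The log2 ratio of Scd1 to Scd2 was -2.52 ± 0.46 (SD, n = 6) in GMYC and -3.61 ± 0.42 (SD, n = 8) in GTML, a difference of -1.09 (exact two-sided permutation test, p = 0.00133, 0.002 adjusted over 3 ratios). It was -1.57 (exact p = 0.133) above the snoRNA split and -1.01 (exact p = 0.0714) below it, both the smallest p their sizes allow. The paralogs share little sequence at the transcript level: 4.56% of the 50-base windows of Scd1 and 3.97% of those of Scd2 occur in other genes, mainly in each other and in Scd3, which stayed between 0.163 and 6.99 CPM.

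Elovl6, the elongase of palmitate, varied widely within both models. It ranged from 94.5 to 267 CPM in GMYC (median 187) and from 65.6 to 226 CPM in GTML (median 92.2), with an SD of log2 CPM of 0.62 in GMYC and 0.61 in GTML against a median of 0.38 and 0.50 over all genes. GMYC tumors 3, 4 and 5 and GTML tumor 2 lay above 225 CPM and the next tumor was at 156 CPM. The log2 fold change was -0.74 (SE 0.299, adjusted p = 0.0854) and did not pass. It passed without GTML tumor 2, at -0.98 (SE 0.255, adjusted p = 0.0117), the single fit of the 14 in which Elovl6 passed. Above the snoRNA split, which holds GTML tumor 2, it was -0.32 (adjusted p = 0.806), and below it -0.77 (adjusted p = 0.151).

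The front-end desaturases had the same log2 fold change, and neither passed the threshold. Fads1, the delta-5 desaturase, ran from 145 to 191 CPM in GMYC and from 115 to 166 CPM in GTML (log2 fold change -0.30, SE 0.105, adjusted p = 0.0529). Fads2, the delta-6 desaturase, ran from 79.7 to 118 CPM in GMYC and from 50.9 to 99.2 CPM in GTML (log2 fold change -0.30, SE 0.148, adjusted p = 0.155). Fads1 passed in 2 of the 14 fits without 1 tumor, without GTML tumor 4 (adjusted p = 0.0299) and without GTML tumor 1 (log2 fold change -0.34). Of 12 other alternatives it passed in 3, limma-voom (log2 fold change -0.31), DESeq2 (adjusted p = 0.0454) and protein-coding genes alone. With the covariate from Y-linked genes it was -0.17 (adjusted p = 0.374), and above the snoRNA split -0.23 (adjusted p = 0.640). The log2 ratio of Fads1 to Fads2 was 0.31 ± 0.19 (SD, n = 6) in GMYC and 0.32 ± 0.21 (SD, n = 8) in GTML (difference 0.01, exact two-sided permutation test, p = 0.942). GTML tumor 2 had the lowest Scd1, Scd2, Fads1 and Fads2 of all 14 tumors.

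**Figure D3:**
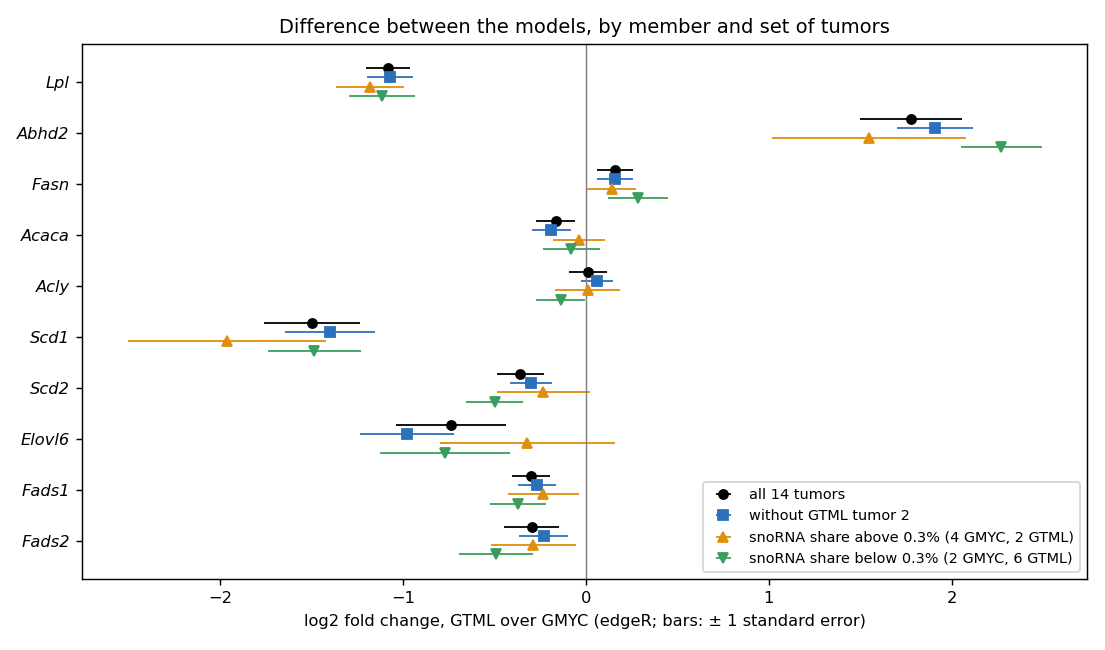
Log2 fold change of GTML over GMYC from edgeR (horizontal axis, bars ± 1 standard error) for each member over all 14 tumors, without GTML tumor 2, and on each side of the snoRNA split. Lpl and Scd1 stay left of 0 and Abhd2 right of 0 in all 4 sets, and Elovl6 moves most when GTML tumor 2 is left out.

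Ordered by level per exon base, the pathway had the same first 3 genes in both models. In GMYC tumors Acly led at 111 ± 12.2 FPKM (SD), followed by Scd2 and then Fasn at 54.7 ± 6.69 FPKM (SD), each without overlap with the next. In GTML tumors Acly was at 112 ± 15.6 FPKM (SD), and Scd2 and Fasn (61.1 ± 6.69 FPKM) did not separate, with Scd2 the higher in 4 of 8 tumors. Below them in GMYC, neighbors among Fads1, Elovl6 and Fads2 overlapped, as did neighbors among Lpl, Scd1, Acaca and Abhd2, while Fads2 and Lpl did not overlap. In GTML, Lpl (7.48 ± 1.22 FPKM) and Scd1 came last, and Lpl was below Acaca in all 8 tumors without overlap. The order of genes depends on the merged exon length. It was 10478 bases for Lpl, 10573 for Abhd2 and 17074 for Acaca, against 3295 for Fads2. Which of these exons the tumors use was not tested, and a gene using few of them would be placed too low. No protein-coding gene of at least 500 exon bases exceeded 1.27 counts per base in any tumor. Acly reached 0.828, Scd2 0.590 and Fasn 0.426 counts per base, while Lpl, Scd1 and Abhd2 stayed at or below 0.309. Whether such a ceiling narrows the differences of the abundant members was not tested.

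Among other fatty acid synthesis enzymes 29 of 30 were tested (Elovl3 was not), 6 were higher in GMYC and 1 in GTML, and the median log2 fold change was -0.21. The share called, 24.1%, is near the 21.2% of all genes. Elovl2, which elongates polyunsaturated chains, was 192 CPM in GMYC and 94.9 CPM in GTML (log2 fold change -1.02, SE 0.197, adjusted p = 0.00556). Hacd1, a dehydratase of the elongation cycle, was 20.4 and 9.94 CPM without overlap (log2 fold change -1.03, adjusted p = 0.00698). The acyl-CoA synthetases Acsl5 (-0.61, adjusted p = 0.0132), Acsl1 (-0.41, adjusted p = 0.0397) and Acsl4 (-0.62, adjusted p = 0.042) had negative log2 fold changes that passed. In the 14 fits without 1 tumor the call held in 14 for Acsl5, 5 for Acsl1 (adjusted p up to 0.108, without GMYC tumor 3) and 3 for Acsl4 (up to 0.0896, without GMYC tumor 4).

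Acacb, the mitochondrial carboxylase whose malonyl-CoA restrains fatty acid import for oxidation, was the enzyme of this list that was higher in GTML. It was 6.11 ± 4.09 CPM (SD, n = 6) in GMYC and 20.2 ± 12.5 CPM (SD, n = 8) in GTML, 3.31-fold higher in GTML with overlap (log2 fold change 1.72, SE 0.435, adjusted p = 0.0143). The call was lost with a term for the snoRNA split (1.42, adjusted p = 0.0595), above the split (1.06, adjusted p = 0.519) and below it (1.75, adjusted p = 0.0708). Of 18 regulators, including Srebf1, the main driver of lipogenic transcription, none passed with edgeR, against 21.2% of all genes. An unadjusted p under 0.05 was found for 4 of them. Such values were common, as an unadjusted p of 0.0464 (edgeR) ranked only 7730 among the 21024 genes tested. DESeq2 called 3 of the regulators and limma-voom 0. Over all genes DESeq2 called 2547 higher in GMYC and 3305 in GTML, and limma-voom 2388 and 2101. The smallest p was that of Prkag1, an AMPK subunit (log2 fold change -0.51, unadjusted p = 0.0148, adjusted p = 0.0614). It passed in 2 of the 14 fits without 1 tumor, those without GMYC tumor 2 or GTML tumor 2. Of 12 other alternatives it passed in 3, below the snoRNA split, among protein-coding genes and with DESeq2. Above the split it was -0.03 (adjusted p = 0.974). Srebf1 itself was 93.1 ± 13.7 CPM (SD, n = 6) in GMYC and 85.6 ± 6.60 CPM (SD, n = 8) in GTML.

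Genes that store fatty acids changed in both directions. Of 20 glyceride synthesis and lipid droplet genes 16 were tested, and 3 were higher in GMYC and 4 in GTML, 43.8% against 21.2% of all genes. Lpin1, a phosphatidate phosphatase, was higher in GTML without overlap at 52.7 against 21.8 CPM (log2 fold change 1.27, adjusted p = 0.00355). The droplet coat genes Plin5 (4.58 against 1.34 CPM, log2 fold change 1.75, adjusted p = 0.00651) and Plin4 (19.8 against 8.94 CPM, 1.14, adjusted p = 0.0104) were higher in GTML, while Plin3 was higher in GMYC (45.7 against 19.8 CPM, -1.20, adjusted p = 0.0127). The diacylglycerol acyltransferases split, with Dgat1 higher in GTML (log2 fold change 0.60, adjusted p = 0.0177) and Dgat2 higher in GMYC (-0.90, adjusted p = 0.0135). Gpam, which starts glyceride synthesis, was at -0.45 (adjusted p = 0.0452), a call that held in 5 of the 14 fits without 1 tumor (adjusted p up to 0.0969, without GMYC tumor 1).

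Of 10 binding and uptake genes tested of 11, 2 passed, both higher in GTML (20% called, near the 21.2% of all genes). The transporter Slc27a1 was 75.2 against 46.4 CPM without overlap (log2 fold change 0.70, SE 0.129, adjusted p = 0.00461). Slc27a2 was 5.77 against 1.25 CPM, with 19.3 CPM in GTML tumor 3 alone, and its log2 fold change was 2.19. Without that tumor it no longer passed (adjusted p = 0.0681). Its call held in 9 of the 14 fits without 1 tumor (adjusted p up to 0.0683, without GMYC tumor 5) and was lost with limma-voom. Of 24 fatty acid oxidation genes, all tested, 6 were higher in GMYC and 1 in GTML (29.2% called, against 21.2% of all genes), and the median log2 fold change was -0.36. Etfa, an electron carrier subunit, was higher in GMYC without overlap (58.2 against 39.4 CPM, log2 fold change -0.56, adjusted p = 0.00785), and the peroxisomal enzyme Ehhadh was 11.4 against 3.63 CPM (-1.64, adjusted p = 0.0148). The mitochondrial enzymes Echs1 (-0.43), Acaa2 (-1.15) and Acadm (-0.56) also passed, each losing its call without GMYC tumor 3 (adjusted p = 0.0533, 0.0542 and 0.067). Acaa2 also lost it without GMYC tumors 5 or 6 or GTML tumor 5, and Acadm without GMYC tumor 5 or GTML tumor 5. Ppara, a nuclear receptor that induces oxidation genes, was the gene higher in GTML, at 1.602 against 0.46 CPM and at most 6 counts in a GMYC tumor. It did not pass without GMYC tumor 1 (adjusted p = 0.0507) or GMYC tumor 5.

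Of the 27 list genes named above that passed, 17 kept the call with a term for the snoRNA split, 16 below the split and 0 above it, and 27 without GTML tumor 2. Those that lost it with the term were Acsl1, Acsl4, Acacb, Apoc2, Dagla, Gpam, Dgat1, Slc27a2, Acadm and Ppara. None of the 27 changed direction in these fits, with Ppara not tested above the split. The log2 fold change above the split moved by over 1.5 times in 15 of 26 genes. It was -0.37 above and -1.90 below the split for Apoc2, -0.17 and -1.90 for Acaa2, -0.10 and -0.67 for Echs1, and -0.49 and -1.83 for Plin3 (-1.42 without GTML tumor 2). For Slc27a2 it was 0.28 and 3.84, and for Lpin1 the order turned, with 1.95 above and 0.69 below. Abhd17b was at -0.14 above and -0.82 below, Lipa at -0.36 and -1.02, and Plin5 at 0.89 and 2.26. Whether the split or the few tumors on each side set these values was not tested.

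**Figure D4:**
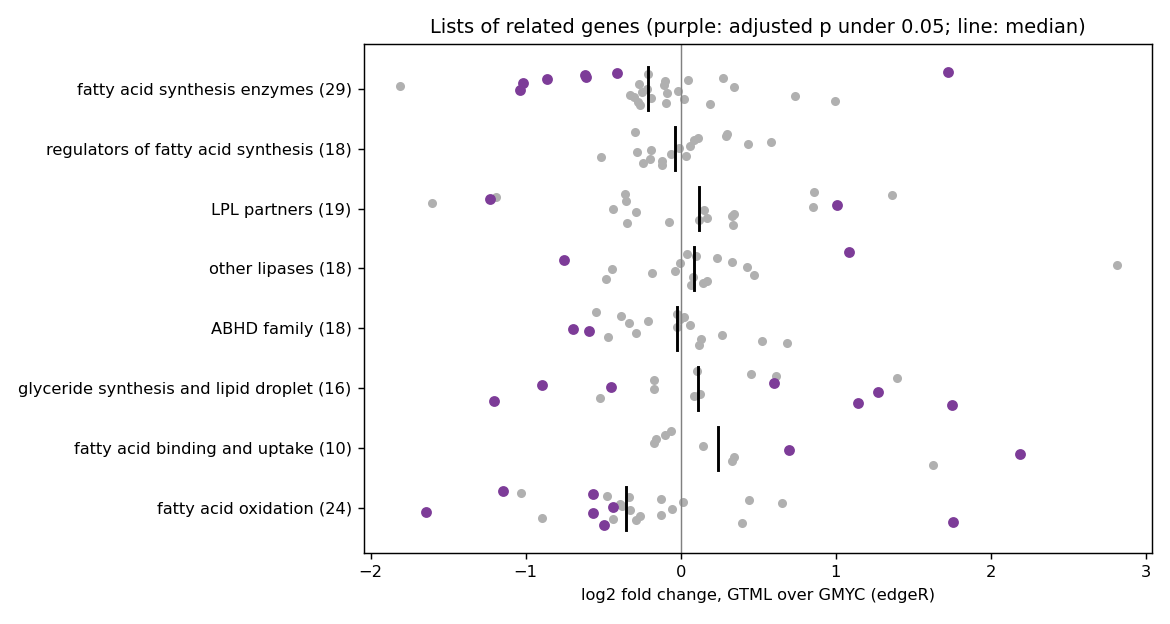
Log2 fold change of GTML over GMYC (horizontal axis) for the tested genes of 8 lists around the members, 1 point per gene, purple where the adjusted p is under 0.05, with a black line at each median. Medians lie between -0.36 (oxidation) and 0.24 (binding and uptake), no regulator is purple, and the lipid droplet list has purple points on both sides.

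The genes whose deviations from the model means were most like those of Lpl over the 14 tumors were Zfp956 (Pearson r = 0.88), Limch1 (0.84) and Cep164 (0.84). For Abhd2 they were Atl1 (0.91), Psg16 (0.91) and Adrb1 (0.90). These were the highest among the genes tested that had a matched symbol. The tumors share a snoRNA split and unequal depth, and the values are given as a description only.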

How the data were processed

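Total RNA of the 6 GMYC tumors was sequenced on the Ion Proton, and the study calls the sequences of the GTML tumors similarly generated. Per the study's methods, the authors aligned reads to mouse mm9 with STAR in 2 passes and then Bowtie, counted them per gene with featureCounts (subread) and GENCODE, and deposited whole-number counts without normalization. How strand and duplicate reads were treated is not given in the sources used here. A further table was not used, as its 18 count columns carry names found in no label. Symbols, gene types and exon lengths were taken from GENCODE M21 (GRCm38) by Ensembl identifier, with 32620 of 37310 genes matched (87.4%).

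Counts were tested with edgeR 4.0.16 (R 4.3.3): TMM scaling, a CPM above 1 in at least 3 tumors, the quasi-likelihood test and Benjamini-Hochberg adjustment over all genes tested, with the study's filter and normalization. The study's own limma-voom test (limma 3.58.1) and DESeq2 1.42.0 were alternatives. The study's own comparison held only GTML tumors classified as Group 3, without the 1 it describes as SHH-like. All 8 GTML tumors were used here, since the labels do not say which of them that was. Whether it is GTML tumor 2, the tumor with the highest Gli1, was not tested. Ratios of 2 members were compared by exact two-sided permutation tests (scipy 1.17.1). Promoters came from RefSeq (GRCm38.p6), and figures were drawn with matplotlib 3.10.9. The scripts were tested on simulated counts.

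The members and gene lists were chosen with earlier results of these data known. The text names all members, the drivers and Gli1, up to 5 genes with the smallest p in each direction of each list among those passing an adjusted p of 0.05 (else the 1 with the smallest p), and the 3 genes most like Lpl and Abhd2. Srebf1, Lmf1, Gpihbp1, Scd3, the cell type markers were named after their values were seen. Other alternatives were library size without TMM, other filters, a replicate block, the omission of each tumor in turn, the snoRNA split as a term or a subset, a covariate from Y-linked genes, thinned counts and protein-coding genes only. Total counts of 4602294 to 7279811 per tumor set the counting error. The standard errors and p-values also include the spread between biopsies.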

Additional observations from a re-analysis of the deposited data

Results flagged for a closer look

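Of 82 groups of tumors examined for a single tumor far from the rest of its model, 8 were set apart by a gap to the nearest other tumor that was a large share of the whole range, where chance gives about 4.1 (about 1 in 20). None of the 8 was a member. Acsl4 reached 153 CPM in GTML tumor 6, with 85.7 CPM in the next, a gap of 0.681 of the range. For Acacb the gap was 0.577, with 48.1 CPM in GTML tumor 7 and 26.2 CPM in the next. GTML tumor 2 stood apart in Prkag1 (27.3 CPM, next 19.6 CPM, gap 0.663), in Plin3 (38.9 CPM, next 23.0 CPM, gap 0.597) and in Gli1 (14.2 CPM, next 3.58 CPM, gap 0.772). Plin5 was 2.70 CPM in GMYC tumor 4 against 1.29 CPM in the next (gap 0.705). Slc27a2 was 19.3 CPM in GTML tumor 3 against 6.41 CPM in the next (gap 0.7096). Myc was lowest in GMYC tumor 6, at 33.4 CPM against 134 CPM in the next (gap 0.763).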

How the results depend on the processing

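At an adjusted p under 0.05, 2041 genes were higher in GMYC and 2418 in GTML, and at the study's thresholds 232 and 444. Leaving out 1 tumor gave 1184 to 3166 and 1433 to 3264 genes at the first threshold, and 40 to 586 and 74 to 1038 at the second, lowest without GMYC tumor 3 and highest without GTML tumor 2. Members called higher in GMYC then numbered 2 to 4, and Abhd2 was called higher in GTML in every such fit (1 to 1). In the same order (first threshold, then second) the counts were 1423, 1428, 127 and 169 with a term for the snoRNA split, 533, 1110, 9 and 47 with the covariate from Y-linked genes, 1334, 1328, 44 and 83 below the split, 2, 0, 2 and 0 above it, and 1360, 1624, 96 and 274 among protein-coding genes. At the second threshold DESeq2 gave 579 and 1312, limma-voom 431 and 418, and no filter on low counts 149 and 269. Limma-voom called 4 members higher in GMYC, while above the split 0 members were called in either direction. DESeq2 left 74 genes without an adjusted p.

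The labels do not state that the replicate numbers pair the tumors. The correlations of same-numbered deviations ran from -0.212 to 0.24. They were not set against those of differently numbered tumors, so they cannot decide whether the numbers pair the tumors. With the replicate block, which leaves out GTML tumors 7 and 8, 90 and 161 genes passed the first threshold and 1 and 2 the second, and 0 members were higher in GTML (Abhd2, adjusted p = 0.0589), while 1 of the 27 named list genes (Elovl2) kept its call.

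The difference of the Scd1/Scd2 ratio was -1.57 above and -1.01 below the split and -1.20 to -0.93 without 1 tumor. That of Fasn/Acaca was 0.18, 0.37 and 0.28 to 0.35 in the same order. These ratio alternatives were chosen after seeing the data, and their p-values within the split cannot go below 0.0714. The Fads1/Fads2 difference changed sign without 1 tumor (-0.049 to 0.055, including -0.0025, -0.0058, -0.0063, -0.025 and -0.035), as did that of Acly (-0.022 to 0.067, including -0.0033, -0.0087, -0.012, -0.016 and -0.018). Acly was also below 0 without a filter (-0.0057), with the split term (-0.067), below the split (-0.14) and among protein-coding genes (-0.013). The cause of these changes was not tested. Depth limits the low genes most: Apoc2, Ppara, Plin5 and Slc27a2 had at most 20 counts in a GMYC tumor.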
